A study of Mus musculus with 6 samples.

Results

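The striatin-interacting phosphatase and kinase complex (STRIPAK) was examined in the gastrocnemius (Gas) muscle of mice with and without miR-92b. The genes described are 9 of the 34714 symbols in the count table, namely Cttnbp2nl, Strn, Strn3, Strn4, Mob4, Strip2, Ppp2ca, Ppp2r1a and Stk25. They were chosen by name as parts of the complex, but with the M92KO against WT values of these libraries known. Their differences between genotypes are therefore a description without a test. All 9 passed the filter on low counts, which left 15788 genes.

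RNA came from Gas muscle of 3 wild-type (WT) and 3 miR-92b knockout (M92KO) mice, all 8 weeks old and untreated, with 1 library for each mouse. The M92KO mice carried a deletion of miR-92b in every tissue, in the strain C57BL/6JGpt-Mir-92bem22Cd549/Gpt, and the WT mice were age-matched C57BL/6 mice. The methods describe the knockout mice as male. Whether the WT mice were littermates is not given in the sources used here, nor is a colony of origin shared by both groups. The Mir92b gene itself was not analysed here, so the labels were not checked against it.

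STRIPAK joins protein phosphatase 2A (PP2A) to kinases. A striatin (STRN, STRN3 or STRN4) takes the place of the usual regulatory subunit on the PP2A scaffold and catalytic subunits, and it carries MOB4, the STRIP proteins, CTTNBP2 or its relative CTTNBP2NL, and, through PDCD10, the GCKIII kinases STK24, STK25 and STK26. The phosphatase acts on kinases held close to it, among them the MST kinases at the head of the Hippo pathway. CTTNBP2NL binds the actin regulator cortactin, and striatins bind caveolin and calmodulin, which are abundant in muscle.

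The mature strands of miR-92b are shown first because their loss defines the genotype. The capitals mark the seed (bases 2 to 8), and the sequences are those of RefSeq on GRCm38.p6, minus strand of chromosome 3, chr3:89227126-89227147 for the 3p strand and chr3:89227165-89227188 for the 5p strand.
miR-92b-3p: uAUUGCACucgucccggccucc
miR-92b-5p: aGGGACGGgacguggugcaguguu

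Annotated 3′-UTRs (GENCODE M21, GRCm38) were searched for 7mer matches to these seeds, either GTGCAAT (or TGCAATA, with an A opposite base 1) for the 3p strand or CCGTCCC (or CGTCCCA) for the 5p strand, on the mRNA strand. Of the 9 genes, Cttnbp2nl, Strn and Strip2 hold a single 7mer 3p match and the other 6 hold none. Of 11 other genes of the complex that were searched, only Cttnbp2, the paralog of Cttnbp2nl, holds such a match. The Strip2 match lies in a 3′-UTR of 1473 bases and not in the longest one of that gene, of 2773 bases. Over the 20437 genes whose 3′-UTR reached 20 bases, the share with a 7mer or 8mer match was 13.5% for the 3p seed and 4.6% for the 5p seed. None of the 9 genes has a 7mer or 8mer 5p match. The longest 3′-UTR of Cttnbp2nl has 2735 bases, and that of Ppp2ca, with 5804 bases, holds no 3p match. The windows around the 4 matches follow, 5′ to 3′ on the mRNA strand, with the match in capitals. They lie at chr3:105003596-105003624 (minus strand), chr17:78654899-78654927 (minus), chr6:29946809-29946837 (plus) and chr6:18366699-18366727 (minus), in that order.
Cttnbp2nl: cataagtattaGTGCAATtgtatctctgg
Strn: ggaggaaacgaTGCAATAatgttaagtgt
Strip2: ttcctagcccaGTGCAATttattccacat
Cttnbp2: taaaattatacTGCAATAaaagtgttatc

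A match is a description of letters and shows no binding. Of the genes with a match, the groups did not overlap for Cttnbp2nl and Strip2, both lower in M92KO mice. They overlapped for Strn and Cttnbp2. Groups did not overlap in 18.4% of all genes, and the values were known when the genes were chosen. Whether a match goes with a difference was not tested.

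The genes lie on several chromosomes (GRCm38, GENCODE M21). Cttnbp2nl is at chr3:105001915-105053146 (minus strand). The striatin genes are Strn at chr17:78649913-78737196 (minus), Strn3 at chr12:51609632-51691897 (minus) and Strn4 at chr7:16815889-16840931 (plus). Mob4 is at chr1:55131231-55154899 (plus), Strip2 at chr6:29917012-29959681 (plus) and Stk25 at chr1:93619751-93658659 (minus). The PP2A genes are Ppp2ca at chr11:52098681-52127778 (plus) and Ppp2r1a at chr17:20945311-20965916 (plus).

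The count totals lay between 38246649 and 48209846 reads in WT and between 33160508 and 37019640 reads in M92KO libraries, without overlap between the groups. A floor of 3 counts came to between 0.0629 and 0.0916 CPM (the read count scaled to a common library size after TMM normalization) and covers counting error only. The defining muscle genes Ckm, Acta1, Mylpf, Tnnt3, Myh4, Myh1, Des and Pvalb summed to between 109873 and 122349 CPM over the 6 libraries, and the lowest count of any of them in a library was 79283. Of these 8 genes 1, Des, was higher in M92KO mice at an unadjusted p under 0.05, and 0 were lower. Across all genes, edgeR's quasi-likelihood test gave 1955 genes with an unadjusted p under 0.05 (12.4%), 863 higher (5.47%) and 1092 lower (6.92%) in M92KO mice. None had a Benjamini-Hochberg adjusted p under 0.05 (0%), while DESeq2's Wald test gave 312. The first M92KO library stood apart from the other 2 of its group, with a chi-square per gene of 58.3 and 58.0 against them, where they differed from each other by 11.1. Without it, 2984 of 16058 genes had an unadjusted p under 0.05. With the study's own steps (quantile normalization and limma), the calls divided into 1244 higher (54.4%) and 1043 lower, against 44.1% higher in the main fit.

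Cttnbp2nl (ENSMUSG00000062127) had read counts of 1126, 1204 and 1360 in WT mice and of 419, 509 and 595 in M92KO mice. These counts correspond to 24.4, 31.2 and 28.5 CPM in WT muscle and 12.1, 15.5 and 16.4 CPM in M92KO muscle. The groups were widely separated, and the highest M92KO mouse lay well below the lowest WT mouse. The means were 28.0 ± 3.42 CPM (SD, n = 3) and 14.7 ± 2.29 CPM (SD, n = 3), with a log2 fold change of -0.93 ± 0.14 (SE), that is, 0.524 of the WT level. The first M92KO mouse had the lowest value, and without its library the log2 fold change was -0.81. The gene shares 155 bases of exon with Gm40117, a noncoding gene on the opposite strand. Whether reads were counted by strand is not given in the sources used here.

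Strip2, which encodes a scaffold protein of the STRIP pair, was the least abundant of the 9 genes, with 51, 41 and 53 counts in WT and 24, 27 and 22 in M92KO libraries. The CPM values were 1.10, 1.06 and 1.11 in WT and 0.691, 0.825 and 0.606 in M92KO muscle. No M92KO value reached the lowest WT value. The log2 fold change was -0.63 ± 0.24 (SE).

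The 3 striatins are the scaffolds to which the other subunits attach. Strn4, which encodes zinedin, stood at 31.8, 35.6 and 34.3 CPM in WT and at 27.6, 29.4 and 27.9 CPM in M92KO mice. All 3 M92KO mice had less than every WT mouse, and the spread within M92KO mice was small (coefficient of variation 3.47%). The log2 fold change of Strn4 was -0.26 ± 0.073 (SE). Strn3, the most abundant striatin, had 246, 258 and 254 CPM in WT and 236, 271 and 290 CPM in M92KO libraries, with a log2 fold change of 0.07 ± 0.085 (SE). Its groups overlapped, with the first M92KO mouse below all WT mice and the other 2 above them. Strn, which encodes striatin itself, had 17.4, 18.5 and 19.3 CPM in WT and 16.6, 19.97 and 16.8 CPM in M92KO mice. The groups of Strn overlapped too, and its log2 fold change was -0.05 ± 0.098 (SE).

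Mob4, a small adaptor of the MOB family that binds the striatins, had 73.8, 72.7 and 72.8 CPM in WT and 74.8, 83.3 and 83.6 CPM in M92KO libraries. The WT mice were nearly identical, and the first M92KO mouse lay only just above them. The log2 fold change was 0.14 ± 0.068 (SE). Ppp2ca, which encodes the alpha catalytic subunit of PP2A, showed the same arrangement, with 188, 189 and 184 CPM in WT and 189, 224 and 231 CPM in M92KO mice. Its log2 fold change was 0.20 ± 0.084 (SE), and the first M92KO mouse was level with the highest WT mouse. Without the first M92KO library, the log2 fold change of Ppp2ca was 0.28 and that of Mob4 was 0.19. Exons of Ppp2ca overlap 9430098F02Rik, a noncoding gene on the opposite strand, over 2985 bases. Ppp2ca and Ppp2cb encode nearly the same protein, and reads from their similar coding sequences could have been split between them.

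Ppp2r1a, which encodes the alpha scaffold of PP2A, differed least, with 143, 144 and 150 CPM in WT and 151, 141 and 149 CPM in M92KO muscle. Stk25, a GCKIII kinase, had 85.9, 86.5 and 89.1 CPM in WT and 89.3, 79.6 and 88.2 CPM in M92KO muscle. The groups overlapped for both genes, and for Stk25 the second M92KO mouse lay below every WT mouse. The log2 fold changes were 0.01 ± 0.063 (SE) for Ppp2r1a and -0.02 ± 0.069 (SE) for Stk25, whose exons share 1013 bases with Farp2 on the opposite strand.

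**Figure D1:**
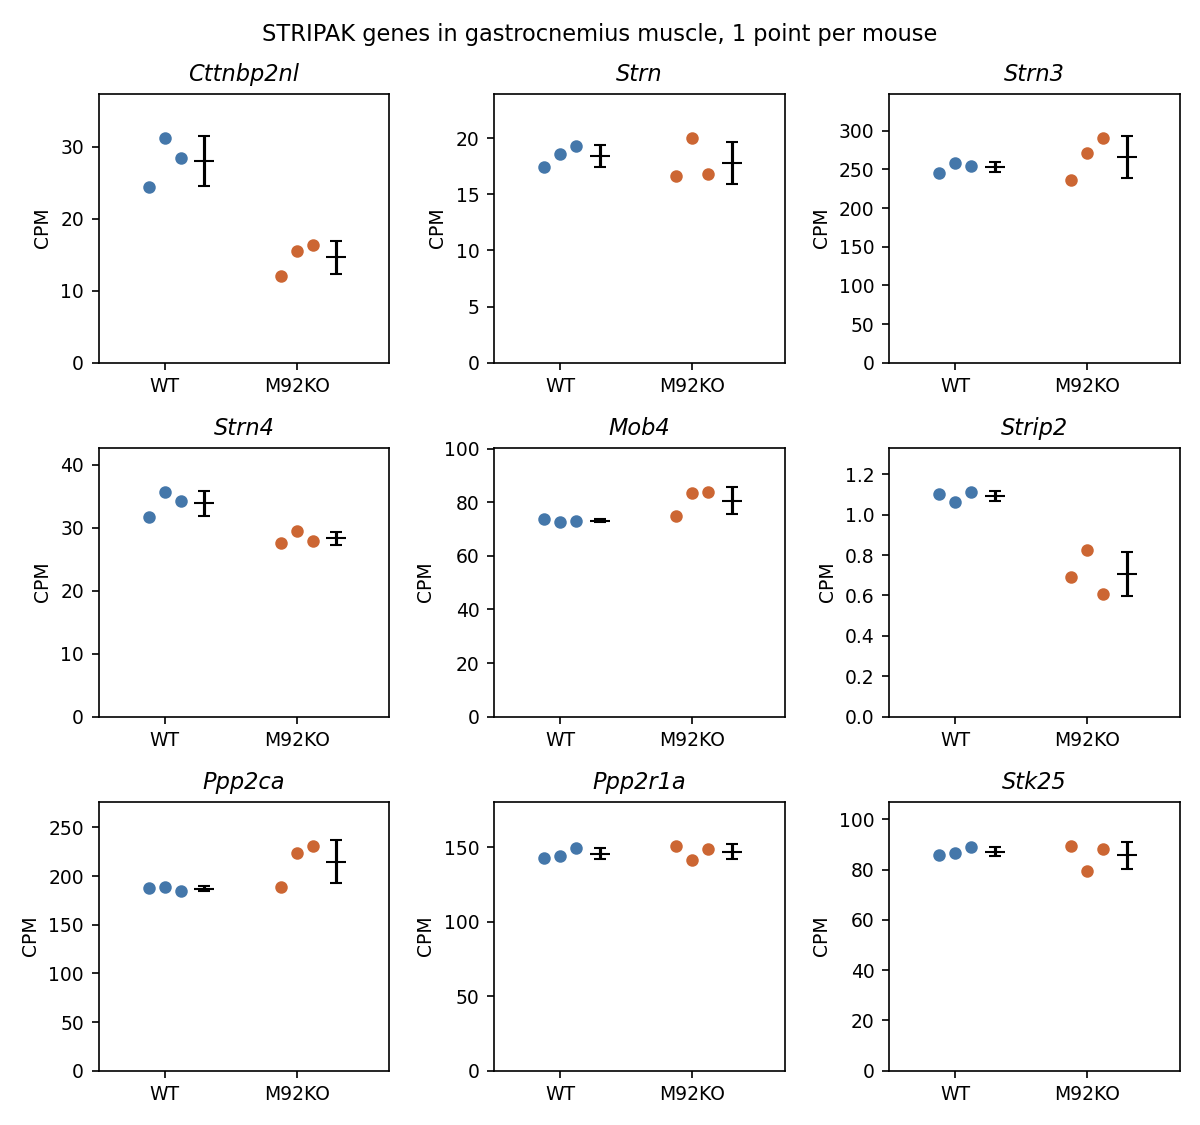
CPM of the 9 STRIPAK genes in the 3 WT and 3 M92KO libraries. Each point is a mouse, and the black bars beside the points give the mean and SD. The M92KO points lie below all WT points for Cttnbp2nl, Strip2 and Strn4 and above them for Mob4 and Ppp2ca, and the groups overlap for the other 4 genes.

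The groups did not overlap in 5 of the 9 genes, of which 3 were lower and 2 higher in M92KO mice, against 18.4% of all genes in either direction. The 9 genes had a median log2 difference of -0.02, where all genes tested had one of -8.07e-05. Since these values were known when the set was drawn up, the counts describe the set only. The coefficient of variation was larger in M92KO than in WT mice for 8 of the 9 genes, Strn4 being the exception. For Mob4, for example, it was 0.845% in WT and 6.2% in M92KO mice, and for Ppp2ca 1.30% and 10.3%. By SD, Cttnbp2nl varied more in WT mice (3.42 against 2.29 CPM). The share of all genes with a larger coefficient in M92KO mice was not computed, and the first M92KO library stood apart across all genes.

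A further 11 genes of the complex were tested, also chosen with earlier results of these data known. Among them were Sike1, Fgfr1op2, Slmap, Stk24, Stk26, Pdcd10, Ppp2r1b, Ppp2cb, Cttnbp2 and Traf3ip3. In edgeR's quasi-likelihood test 0 of the 11 had an unadjusted p under 0.05 in either direction, against 12.4% of all genes, and 0 had an adjusted p under 0.05. DESeq2's Wald test also gave 0 by either measure. The groups overlapped in all 11 genes, and the median log2 fold change was -0.02. Adjusted over all genes, the edgeR p-values ran from 0.684 to 0.979. Values of single genes lay between -0.34 for Traf3ip3 and 0.08 for Fgfr1op2, with standard errors between 0.064 and 0.30, so small differences were not detectable in the scarce genes.

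Among the genes that bind kinases and membranes, Pdcd10, the adaptor between GCKIII kinases and striatins, had 20.4, 20.8 and 18.8 CPM in WT and 19.8, 19.8 and 21.8 CPM in M92KO muscle. The groups overlapped. Slmap, a tail-anchored membrane protein that brings the MST kinases to the complex, had 120, 111 and 102 CPM in WT and 84.4, 115 and 138 CPM in M92KO mice. It was the most variable of the abundant STRIPAK genes in M92KO muscle, with a coefficient of variation of 23.7%, against 8.06% in WT. Its fitted log2 fold change was 0.02 ± 0.16 (SE) and ran from -0.16 to 0.18 as single libraries were left out. Sike1 and Fgfr1op2, the coiled-coil partners of SLMAP, had log2 fold changes of 0.02 ± 0.093 (SE) and 0.08 ± 0.077 (SE). Cttnbp2, the paralog of Cttnbp2nl, was scarce, with read counts of 93, 132 and 102 in WT mice and of 76, 65 and 91 in M92KO mice. Its log2 fold change was -0.17 ± 0.24 (SE, edgeR adjusted p = 0.825), and without the second WT library, which had the highest value, it was 0.10.

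Of the kinases and PP2A paralogs, Stk24 had a log2 fold change of 0.05 ± 0.079 (SE) and Stk26 one of -0.24 ± 0.22 (SE). Ppp2cb, the beta catalytic subunit, had a log2 fold change of -0.09 ± 0.078 (SE) and Ppp2r1b, the beta scaffold, one of -0.14 ± 0.11 (SE). The groups overlapped in each of these 4 genes, and in Stk24 the first M92KO mouse lay below the WT mice and the other 2 above them. Traf3ip3, a partner of the complex known from immune cells, had read counts of 65, 49 and 50 in WT mice and of 48, 21 and 33 in M92KO mice.

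**Figure D2:**
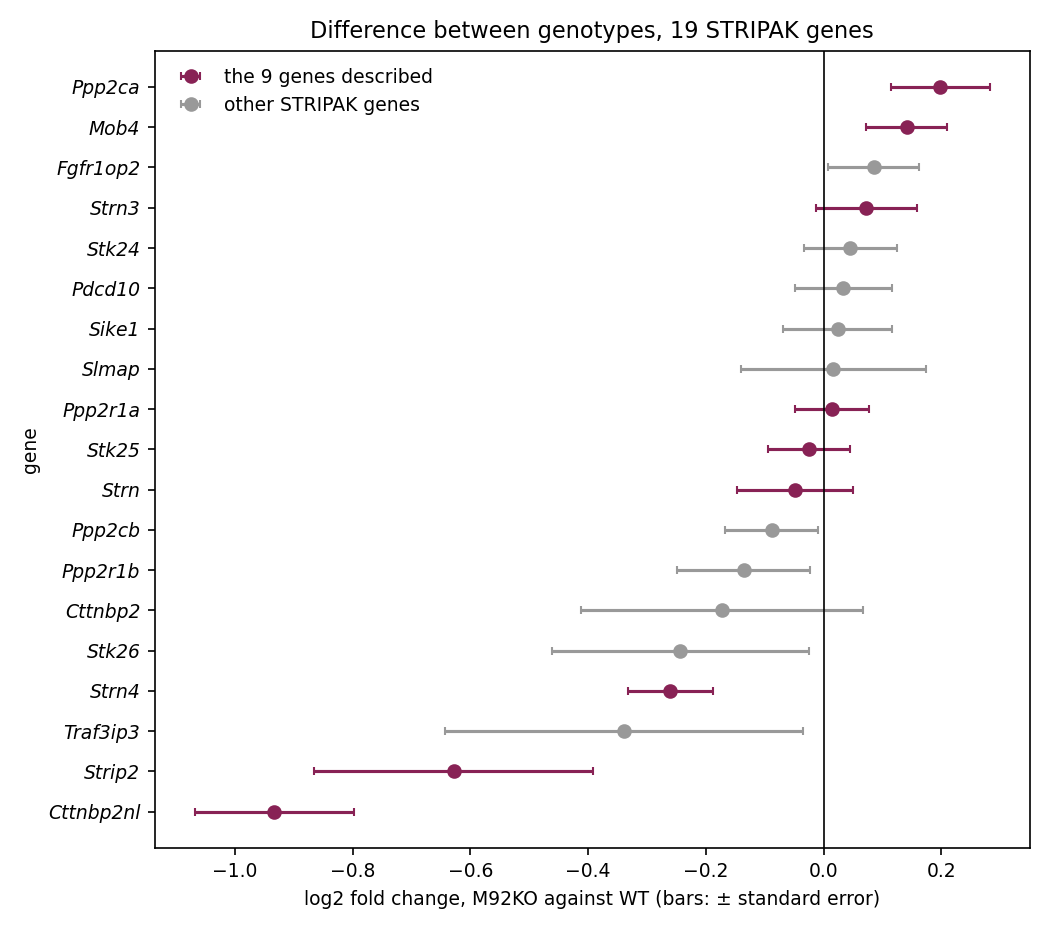
Log2 fold change of M92KO against WT for 19 STRIPAK genes, with bars of 1 standard error on either side (edgeR, 3 mice against 3). Dark points are the 9 genes of the set and grey points are 10 other genes, all of which lie between -0.34 and 0.08.

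Levels of different genes were compared as CPM per kilobase of the longest annotated transcript. In WT muscle Strn3 was highest, at 68.2 ± 1.72 CPM per kilobase (SD, n = 3), followed by Ppp2r1a at 60.4 ± 1.51 (SD, n = 3). Ppp2ca stood at 26.3 ± 0.342, Mob4 at 20.6 ± 0.174 and Stk25 at 20.5 ± 0.394 CPM per kilobase (SD, n = 3 each). Neither Mob4 and Stk25 nor their neighbours Stk24 and Slmap differed beyond the range of the 3 WT mice. Lower levels were found for Strn4, at 8.25 ± 0.479, Cttnbp2nl, at 5.66 ± 0.692, and Strn, at 2.13 ± 0.112 CPM per kilobase (SD, n = 3 each). Strip2 was the lowest of all 20 genes, at 0.203 ± 0.00496 CPM per kilobase (SD, n = 3). The order within the 9 genes was clear of overlap except between Mob4 and Stk25. In M92KO muscle Cttnbp2nl stood at 2.97 ± 0.463 CPM per kilobase (SD, n = 3), below Sike1 at 3.58 ± 0.415 (SD, n = 3), which it exceeded in WT muscle on this scale. The M92KO values of both genes overlapped, with 2.44, 3.14 and 3.31 for Cttnbp2nl and 3.10, 3.81 and 3.83 for Sike1. With the mean length of the transcripts Cttnbp2nl lay below Sike1 in both groups. When the mean length of the annotated transcripts was used instead, Ppp2r1a came first, at 174 CPM per kilobase in WT muscle, before Strn3, at 79.4, and Stk25 stood above Ppp2ca.

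**Figure D3:**
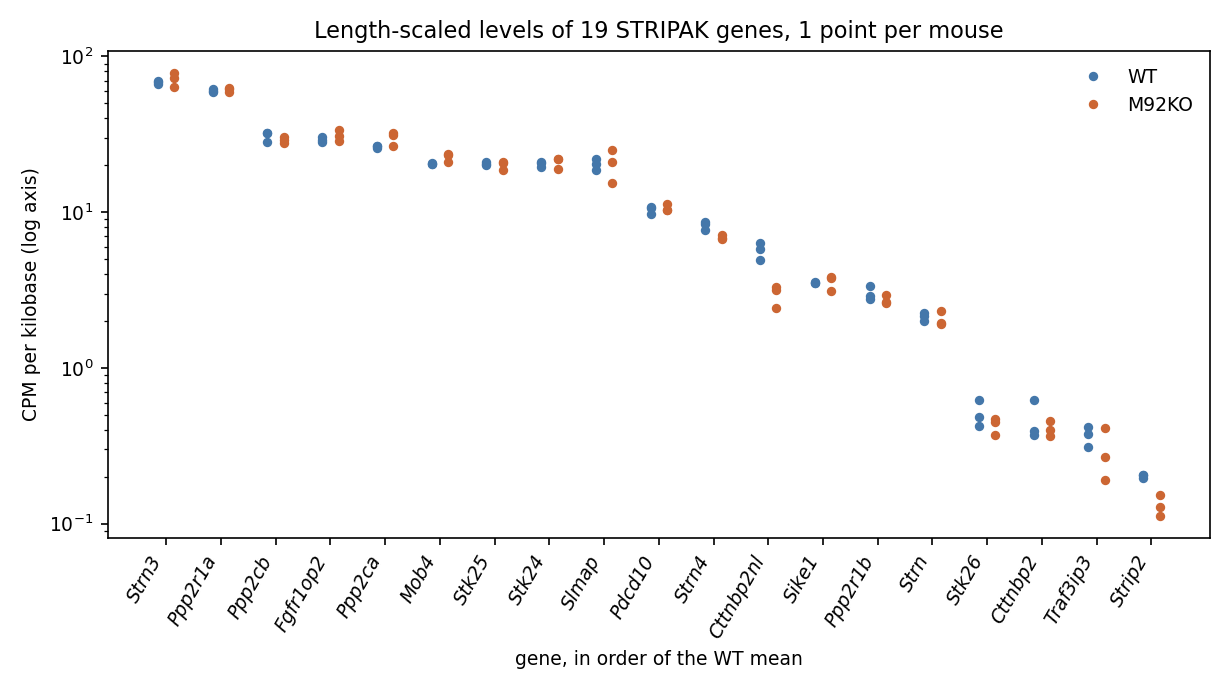
Level of 19 STRIPAK genes as CPM per kilobase of the longest transcript, on a log axis, in the order of the WT means. Each point is a mouse. Strn3 and Ppp2r1a are the highest and Strip2 is the lowest, and the M92KO points of Cttnbp2nl lie below its WT points.

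The share of each paralog within its family was calculated from these length-scaled levels. Strn3 made up 86.8 ± 0.344% (SD, n = 3) of the 3 striatins in WT and 88.9 ± 0.995% (SD, n = 3) in M92KO muscle. Strn4 made up 10.5 ± 0.309% (SD, n = 3) in WT and 8.57 ± 0.745% (SD, n = 3) in M92KO muscle, and Strn the small remainder. The 2 groups did not overlap for Strn3 or Strn4, with Strn3 at 87.2, 86.6 and 86.7% in WT and at 88.1, 88.5 and 90.0% in M92KO mice. With mean transcript lengths the share of Strn3 in WT was 72.6%. Ppp2r1a supplied 95.3% of the PP2A scaffold level in WT and 95.7% in M92KO muscle. Cttnbp2nl supplied 92.6 ± 1.40% (SD, n = 3) of the CTTNBP2 pair in WT and 87.8 ± 1.87% (SD, n = 3) in M92KO muscle, and its groups did not overlap. Stk24 and Stk25 shared the GCKIII level almost equally on this scale, with 49.2% and 49.5% in WT, while Stk26 had 1.23%. With mean transcript lengths Stk24 had 42.1% and Stk25 57.1% in WT, so this balance too depends on the length chosen. The share of Ppp2ca in the catalytic pair was 46.1 ± 2.15% (SD, n = 3) in WT and 50.9 ± 2.76% (SD, n = 3) in M92KO muscle, with overlapping groups. It was 61.3% in WT with mean transcript lengths, so which catalytic gene is the more abundant depends on the length chosen.

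Genes around the complex were taken as 3 lists, and M92KO was tested against WT in edgeR. The lists were drawn up with earlier results of these data known, so their counts describe the lists only. Of 22 genes for other PP2A subunits and regulators, 2 stood higher and 0 lower with p under 0.05 unadjusted, against 5.47% and 6.92% of all genes, and the median log2 fold change was 0.03. Ppme1, which encodes the methylesterase that removes the methyl mark from the PP2A catalytic subunit, had 32.5, 34.0 and 32.3 CPM in WT and 35.1, 45.3 and 44.4 CPM in M92KO mice. All M92KO values lay above the WT values, with a log2 fold change of 0.34 ± 0.10 (SE, edgeR adjusted p = 0.256). Ppp2r5d, a regulatory subunit of the B56 family, had 44.3, 44.4 and 45.1 CPM in WT and 48.9, 49.5 and 49.2 CPM in M92KO mice, with little spread in either group. Its log2 fold change was 0.14 ± 0.059 (SE, edgeR adjusted p = 0.388). Without the first M92KO library 7 of the 22 genes had an unadjusted p under 0.05, 5 higher and 2 lower, where 2984 of all 16058 genes tested did. Without any other single library the number was 1.

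Of 12 genes for kinases and adaptors of the Hippo and NDR pathways linked to STRIPAK, 0 stood higher and 3 lower with p under 0.05 unadjusted, against 6.92% of all genes that were lower. The 3 genes were Lats2, Map4k4 and Mob1a. Lats2, the kinase that phosphorylates YAP and TAZ, had 48.5, 49.3 and 54.0 CPM in WT and 34.6, 36.7 and 43.0 CPM in M92KO mice. Its log2 fold change was -0.41 ± 0.094 (SE, edgeR adjusted p = 0.184), and exons of Lats2 overlap Gm49361 on the same strand over 2955 bases. Map4k4, a kinase that STRIPAK binds, had 51.8, 55.5 and 50.8 CPM in WT and 40.6, 44.8 and 42.9 CPM in M92KO mice. Its log2 fold change was -0.30 ± 0.070 (SE, edgeR adjusted p = 0.186). In both genes every M92KO mouse was below every WT mouse, and both had an adjusted p under 0.05 in DESeq2's Wald test, 0.0208 for Lats2 and 0.0442 for Map4k4. Mob1a, the coactivator of the LATS kinases, had 38.6, 33.8 and 35.9 CPM in WT and 22.4, 32.6 and 31.0 CPM in M92KO mice, with a log2 fold change of -0.33 ± 0.13 (SE, edgeR adjusted p = 0.373). The upstream kinases Stk3 and Stk4, on which STRIPAK acts, had log2 fold changes of -0.09 ± 0.12 (SE) and -0.17 ± 0.089 (SE) and were not called. Nor were Lats1 and Mob1b, the paralogs of Lats2 and Mob1a, whose groups overlapped. Their log2 fold changes were -0.12 ± 0.075 (SE) for Lats1 and 0.11 ± 0.29 (SE) for Mob1b.

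Of 11 genes whose products bind striatins or GCKIII kinases (among them Cttn, Cav1, Cav3, Calm2, Calm3, Krit1, Ccm2, Apc, Golga2 and Esr1), 0 had an unadjusted p under 0.05 in edgeR, against 12.4% of all genes, and DESeq2 gave 0 as well, and 0 had an adjusted p under 0.05 with either tool. Cttn, which encodes the cortactin that CTTNBP2NL binds, had a log2 fold change of -0.11 ± 0.069 (SE, edgeR adjusted p = 0.583). The muscle caveolin gene Cav3 had one of 0.11 ± 0.079 (SE, edgeR adjusted p = 0.645). Without the first M92KO library 2 of the 11 genes were lower, as were 1439 of all 16058 genes tested.

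**Figure D4:**
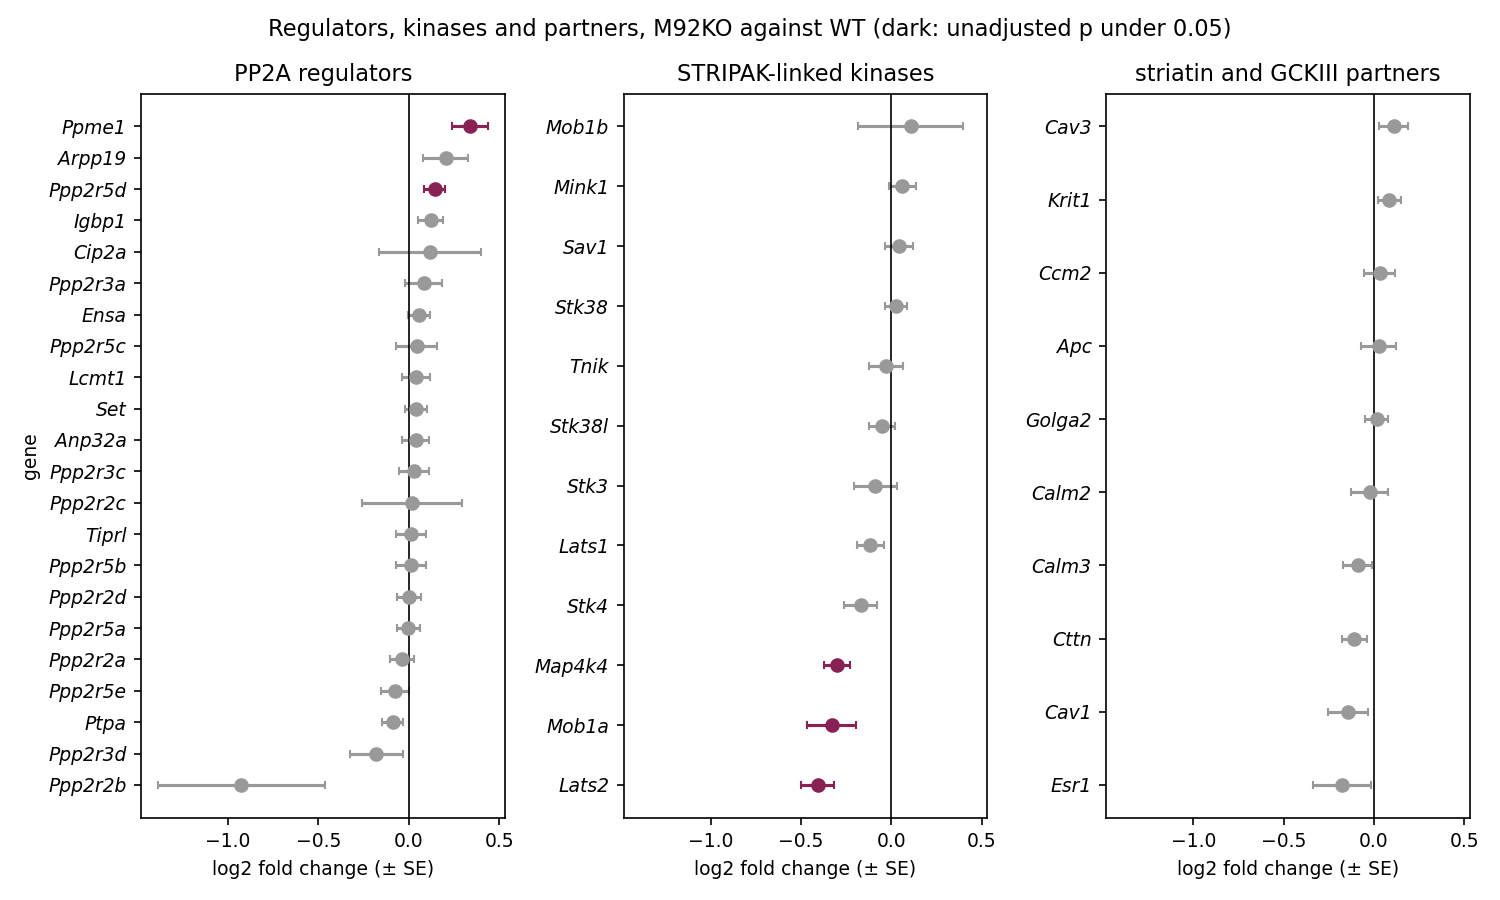
Log2 fold change of M92KO against WT, with bars of 1 standard error, for 22 PP2A regulators, 12 STRIPAK-linked kinases and 10 partners. Dark points had an unadjusted p under 0.05 in edgeR, namely Ppme1 and Ppp2r5d to the right and Lats2, Mob1a and Map4k4 to the left. The point farthest to the left is the scarce gene Ppp2r2b, at -0.93 with a standard error of 0.46.

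Cttnbp2nl lies on the same chromosome as the deleted miRNA, 15.8 Mb away, as do Sike1 (13.8 Mb) and Pdcd10 (13.7 Mb). Of these 3 genes the groups of Cttnbp2nl did not overlap, and those of the other 2 did. The 6 genes tested within 250 kb of Cttnbp2nl, chosen by position after its values were seen, were Ppm1j, Rhoc, Mov10, Capza1, St7l and Wnt2b. All 6 lie at lower coordinates, beyond the 3′ end of Cttnbp2nl, and no gene on its other side within this distance was tested. The log2 fold changes of the 6 lay between -0.09 for Capza1 and 0.16 for Wnt2b. In edgeR 0 of the 6 had an unadjusted p under 0.05, and DESeq2 gave 0 too, against 12.4% of all genes in edgeR.

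The 5 genes whose log2 CPM over the 6 libraries was most like that of Cttnbp2nl, by Pearson's correlation, were Scn4b, Dlc1, Plekhm3, Git2 and Fnip2, with r between 0.991 and 0.997. This likeness is a description over 6 libraries that share the difference between the genotypes and were picked out of all genes tested. Dlc1 had 68.1, 78.5 and 75.8 CPM in WT and 49.0, 52.9 and 56.2 CPM in M92KO mice. The sodium channel subunit gene Scn4b had 794, 876 and 856 CPM in WT and 640, 679 and 701 CPM in M92KO mice. In both genes, as in Cttnbp2nl, the second WT mouse was highest and the first M92KO mouse lowest.

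Markers of other cell types were counted beside these results, since fewer cells of a type and less RNA per cell cannot be told apart in whole muscle. Of 9 fibroblast markers, 3 (Col1a1, Col1a2 and Dcn) were lower and 0 higher at an unadjusted p under 0.05, against 6.92% and 5.47% of all genes, and their sum lay between 1790 and 2357 CPM in WT and between 1223 and 1683 CPM in M92KO muscle. The sum of 8 markers of vascular mural cells lay between 1603 and 1655 CPM in WT and between 1395 and 1592 CPM in M92KO muscle, with 1 marker (Rgs5) lower. Both sums, like Cttnbp2nl, were lowest in the first M92KO library. Among WT mice both sums were highest in the first library, where Cttnbp2nl was lowest. Among M92KO mice both sums were highest in replicate 2 and Cttnbp2nl in replicate 3. Neither sum overlapped between the genotypes, nor did Cttnbp2nl. For the mural markers the gap was narrow, from 1592 to 1603 CPM, and their median log2 fold change was -0.01. That of the fibroblast markers was -0.33. Endothelial markers (10 genes, with Tie1 lower), macrophage markers (8 genes, with Ptprc lower) and Schwann cell markers (6 genes, 3 lower, among them Mbp and Pmp22) had sums that overlapped. Of 6 fat-cell markers 5 were tested, with 1 lower (Plin4) and a median log2 fold change of 0.62, and the markers summed to between 432 and 640 CPM in WT and between 323 and 433 CPM in M92KO muscle, and red-cell markers (5 genes, 0 called) to between 74.0 and 222.6 CPM and between 143 and 336 CPM. None of the marker genes was at 0 in all libraries, though Lep was at 0 counts in at least 1 of them. The part of these cells in the values of Cttnbp2nl, Strip2 and Strn4 was not tested.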

How the data were processed

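Gas muscle RNA of 3 WT and 3 M92KO mice was sequenced after SMARTer library construction. The authors deposited raw counts for each gene symbol, and per the labels GRCm38 (mm10) was the build. The aligner, the counting program and its use of strand are not given in the sources used here. The columns were matched to samples by the labels' descriptions. Low-count genes were left out by filterByExpr (min.count 10, min.total.count 15). After TMM normalization, genotypes were compared with glmQLFit and glmQLFTest of edgeR 4.0.16 in R 4.3.3, with genotype as the single term. Benjamini-Hochberg adjustment covered the 15788 genes. Called means an unadjusted p under 0.05, the threshold of the study. Groups do not overlap where all M92KO values lie on one side of all WT values. A p-value sets the difference between genotypes against the variation between mice, which edgeR estimates partly from other genes. Replicate libraries differed by more than sampling noise (11.1 or more for the chi-square per gene). In simulated data with this design, 200 of 15788 genes, none of them scarce, were given a log2 change of 1. At a Benjamini-Hochberg adjusted p under 0.05, edgeR recovered 187 of them and picked out 10 unchanged genes. The simulation held no outlying library, and its calls at an unadjusted p are not given here.

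The 9 genes and all gene lists were chosen with earlier results of these data known. The genes named are the 9, other STRIPAK genes (some list members are counted but not reported by name here), up to 4 called genes of each further list and the 5 genes most like Cttnbp2nl. The genes around Cttnbp2nl and the genes given as examples were added after their values were seen. Positions, lengths and 3′-UTRs came from GENCODE M21 on GRCm38, which held 25731 of the symbols, plus 424 under a synonym, and lacked 8559. Sequences of miR-92b came from RefSeq. Alternatives were DESeq2's size factors, DESeq2 1.42.0, no filter, at least 10 counts in every library, the study's limma steps (limma 3.58.1), a replicate block, offsets for GC content and transcript length (lowess span 0.3), and each library left out. Combining the block with the offsets was chosen after seeing the data. Figures were drawn with matplotlib 3.10.9.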

Additional observations from a re-analysis of the deposited data

How the results depend on the processing

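Direction was the same under all 14 alternatives for 12 of the 20 STRIPAK genes, 6 of them among the 9: Cttnbp2nl, Strn3, Strn4, Mob4, Strip2 and Ppp2ca. The others, among them Strn, Ppp2r1a, Stk25, Sike1, Slmap, Pdcd10 and Cttnbp2, changed sign in at least 1. As libraries were left out in turn, log2 fold changes spanned -1.02 to -0.81 for Cttnbp2nl, from -0.75 to -0.53 for Strip2, from -0.31 to -0.22 for Strn4 and from 0.14 to 0.28 for Ppp2ca. Those of Mob4 ran from 0.11 to 0.19. Those of Strn3 ran from 0.005 to 0.15, so its sign was kept only narrowly. The median of the 9 genes stayed between -0.04 and 0.03. All-gene calls numbered 1222 to 2984 in these fits, the highest without the first M92KO library and the lowest without the second WT library. Without WT replicate 3 they numbered 1272. Calls among the PP2A regulators numbered 1 with DESeq2's Wald test, 1 without the filter, and 1 to 7 when single libraries were dropped. Partners numbered 1 with the limma steps and 0 to 2 when single libraries were dropped. Lats2, Map4k4 and Ppme1 were called under all 14 alternatives, with adjusted p between 0.0122 and 0.679. Mob1a was called in 4 of 6 fits without a library (not without WT replicate 1 or 3, nor with the limma steps), and Ppp2r5d in 1 of 6.

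Replicate numbers are shared by the groups, but deviations of same-numbered libraries correlated at only 0.0742, 0.0450 and 0.0148, so the numbers were not taken as pairs. With the replicate block 1691 genes were called, and 1 PP2A regulator, also 1 with the block and the GC and length offsets. The median log2 fold change of the 9 genes was -0.03 with the block. Depth limits Strip2, Stk26, Cttnbp2 and Traf3ip3, the genes with the lowest counts.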
